A study of Mus musculus with 12 samples.

Results

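Cell cycle genes are described here at the chromatin of their starts, in organoids grown from PyMT mouse mammary tumours. The set is a fixed list of 42 named genes out of 21887 protein-coding genes with a position. They comprise 9 genes of replication licensing and S phase, 8 cyclins, 7 cyclin-dependent kinases (CDKs) and CDC25 phosphatases, 9 genes of mitosis, 4 genes of the E2F and RB pathway and 5 CDK inhibitors.

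The study mapped 2 histone marks by CUT&Tag, in which an antibody guides a transposase that cuts and tags DNA beside the mark. H3K4me3 sits at active promoters, and H3K27me3 is the mark of Polycomb repression. Organoids, also called spheroids or tumoroids in the labels, received a control treatment (Ctrl), SR2 or THC, were taken on day 3 after it, and gave 2 libraries for each mark and treatment. All groups share the genotype WT and the line "PyMT derived organoids", and the title names modulation of the cannabinoid receptor CB2R. Doses, the length of exposure, what SR2 stands for, the promoter of the PyMT transgene and the number of tumours behind the line are not given in the sources used here. In the labels the batch carries the same number as the replicate, so each batch holds 1 library of each treatment, and the labels do not say whether the replicates are separate cultures. The sample protocol and the series text name different enzymes for dissociating the organoids.

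A cell divides by first loading the MCM helicase on its origins with CDC6 and CDT1, then firing those origins in S phase and separating the copies in mitosis. Cyclins that come and go switch the CDKs on, CDC25 phosphatases release them, and CDK inhibitors hold them back. Cyclin D with CDK4 or CDK6 phosphorylates RB, which frees E2F to transcribe the genes of S phase, while many mitotic genes are controlled through a CHR element and CCAAT boxes bound by the DREAM and MuvB complexes and NF-Y. Cyclin D1 is a well-known oncogene of breast tumours, and the Cdkn2a locus is a classic target of Polycomb.

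The deposited data are peak lists, 1 per library, so the level of H3K4me3 at a gene is given as covered bp. This is the number of bases within 1 kb of the gene start, out of 2001, that lie inside a peak of that library. It is a breadth and not a read count. The start was known for 34 of the 42 genes. For the other 8 (Aurkb, Ccna2, Ccnd1, Ccnd2, Ccne2, Cdc25c, Mcm4 and Rb1) the gene end with more covered bp was used, so that at these 8 genes a start and a gene end cannot be told apart. Where a gene had several known starts, the one with the most covered bp was used. Values below are listed as Ctrl replicates 1 and 2, SR2 replicates 1 and 2, and THC replicates 1 and 2.

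The libraries differed before any gene is considered. The H3K4me3 lists held 16442 to 18383 peaks in Ctrl, 14812 to 15190 in SR2 and 11924 to 13229 in THC, with THC replicate 1 the shortest. Read totals are not in peak lists, but summit pileups (fragments stacked at the highest point of a peak) were recovered from the deposited values. The median at the cell cycle genes was 150 and 112 in the Ctrl libraries, 51.5 and 84 after SR2, and 24 and 60 after THC. Over all coding genes marked in all 6 libraries it was 138 and 102, 53 and 82, and 24 and 58. Of the 8 luminal epithelial markers, 6 were marked in all 6 libraries, and Krt18 and Krt19 lacked a peak only in THC replicate 1. The summed covered bp of those 8 markers was 3788 in THC replicate 1 and 7303 to 9105 in the other 5 libraries. The 4 basal markers summed to 0 in THC replicate 1 and to 1618 to 3013 elsewhere, with Trp63 and Acta2 at 0 throughout. Of the 5 fibroblast, 5 blood and 4 endothelial markers, 4, 3 and 3 were marked in no library, among them Ptprc and Pecam1. The others were the fibroblast marker Col1a1 (4 libraries), the blood markers Lcp1 (all 6) and Cd68 (3), and the endothelial marker Kdr (3). The sums by kind of marker ran from 0 to 242, from 253 to 1308 and from 0 to 897 bp. The highest sum was that of SR2 replicate 2 for the fibroblast markers and that of Ctrl replicate 1 for the other 2 kinds. In a bulk sample fewer marked cells and less mark per cell cannot be told apart, and what the shallower THC replicate 1 contributes to each comparison was not tested, other than by leaving it out.

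Promoter sequences from RefSeq, on assembly GRCm38.p6 of mm10, were available for the 34 genes with a known start. Each runs from 250 bases before the start to 50 bases after it, 5′ to 3′ on the gene's strand. Capitals mark 3 kinds of match searched on both strands. The E2F motifs were TTTCCCGC, TTTGGCGC, TTTCGCGC and TTTGCCGC, the CHR motifs were TTTGAA and TTCGAA, and the CCAAT box was CCAAT, which reads ATTGG on the opposite strand. Matches of E2F motifs on opposite strands can overlap, as they do in the Mcm6 promoter, where both are counted.

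The first 4 promoters show the range of these elements, from a licensing gene dense in E2F motifs, through one with none, to the mitotic kinase and cyclin genes Cdk1 and Ccnb2. Mcm6 and Ccnb2 also belong to the 5 genes with an unadjusted p under 0.05 and a narrower mark in THC.
Mcm6, chr1:128359656-128359955, minus strand: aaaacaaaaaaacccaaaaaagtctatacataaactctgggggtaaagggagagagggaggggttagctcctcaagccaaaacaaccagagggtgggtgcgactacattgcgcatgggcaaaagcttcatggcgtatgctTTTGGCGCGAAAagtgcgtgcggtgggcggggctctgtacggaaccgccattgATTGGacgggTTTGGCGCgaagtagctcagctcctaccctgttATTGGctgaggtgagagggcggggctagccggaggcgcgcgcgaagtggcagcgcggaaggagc
Mcm2, chr6:88898731-88899030, minus strand: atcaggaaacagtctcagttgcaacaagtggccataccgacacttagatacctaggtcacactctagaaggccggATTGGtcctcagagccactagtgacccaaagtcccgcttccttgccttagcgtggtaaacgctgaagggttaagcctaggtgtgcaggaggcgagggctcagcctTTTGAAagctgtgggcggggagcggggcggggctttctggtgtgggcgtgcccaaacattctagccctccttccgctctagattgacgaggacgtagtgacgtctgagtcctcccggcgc
Cdk1, chr10:69352863-69353162, minus strand: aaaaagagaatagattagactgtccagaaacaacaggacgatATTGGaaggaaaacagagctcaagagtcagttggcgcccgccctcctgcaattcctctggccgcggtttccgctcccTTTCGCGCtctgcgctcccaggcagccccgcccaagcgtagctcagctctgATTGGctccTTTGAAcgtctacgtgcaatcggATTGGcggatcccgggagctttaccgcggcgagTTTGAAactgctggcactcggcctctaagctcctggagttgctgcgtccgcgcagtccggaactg
Ccnb2, chr9:70421505-70421804, minus strand: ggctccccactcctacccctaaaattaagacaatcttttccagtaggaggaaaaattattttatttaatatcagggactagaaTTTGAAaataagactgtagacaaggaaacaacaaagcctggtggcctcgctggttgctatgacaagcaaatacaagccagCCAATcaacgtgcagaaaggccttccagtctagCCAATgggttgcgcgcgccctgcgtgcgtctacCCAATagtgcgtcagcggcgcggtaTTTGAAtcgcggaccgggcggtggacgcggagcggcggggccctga

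Cdkn2a is shown at both of its starts, because they differed in H3K4me3. The upstream start, which in the mouse gives the ARF transcript, held 45 CpG dinucleotides in 300 bases, and the downstream start, which gives INK4A, held 12.
Cdkn2a upstream start, chr4:89294570-89294869, minus strand: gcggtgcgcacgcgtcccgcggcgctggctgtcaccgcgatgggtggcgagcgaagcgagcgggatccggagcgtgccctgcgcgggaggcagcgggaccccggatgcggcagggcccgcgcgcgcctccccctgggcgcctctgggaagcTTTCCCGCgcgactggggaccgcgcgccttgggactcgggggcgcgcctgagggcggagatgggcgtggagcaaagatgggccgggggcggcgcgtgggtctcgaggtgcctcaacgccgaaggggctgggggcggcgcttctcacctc
Cdkn2a downstream start, chr4:89282143-89282442, minus strand: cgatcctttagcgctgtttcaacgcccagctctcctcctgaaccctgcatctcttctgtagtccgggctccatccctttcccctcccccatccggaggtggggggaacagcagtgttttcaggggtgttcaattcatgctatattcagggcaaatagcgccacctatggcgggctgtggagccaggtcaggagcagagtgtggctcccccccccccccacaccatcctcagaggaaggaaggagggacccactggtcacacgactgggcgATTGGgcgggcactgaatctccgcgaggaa

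The matches were spread unevenly over the roles. An E2F motif was present in 6 of the 8 licensing and S phase promoters and in 0 of the 8 mitotic promoters. A CHR motif was present in 7 of the 8 mitotic promoters and in 2 of the 8 licensing ones. Over all 34 promoters, 11 (32.4%) held an E2F motif, 13 (38.2%) a CHR motif and 22 (64.7%) a CCAAT box. The shares were 4.90%, 12.1% and 38.8% over 8281 coding genes with a known start that were marked in all 6 libraries. Over all 32851 promoters of the table they were 2.26%, 19.2% and 37.4%. The 12 promoters that held both a CHR motif and a CCAAT box were 35.3% of the 34, against 5.35% of those 8281.

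Top2a, which encodes the topoisomerase that untangles mitotic chromosomes, had 4 CHR and 6 CCAAT matches, the most of any of these genes. Among the mitotic promoters, that of Birc5 (survivin, of the chromosomal passenger complex) held no match. Cdk1 alone among the CDKs carried an E2F motif together with CHR motifs. In the printed sequence its last CHR match lay at 15 to 10 bases before the start. Median CpG content was 24.5 dinucleotides per promoter at the cell cycle genes, 23 at the 8281 marked genes and 3 at 7344 coding genes with a known start and no mark. A match is a stretch of letters and not evidence of binding.

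**Figure D1:**
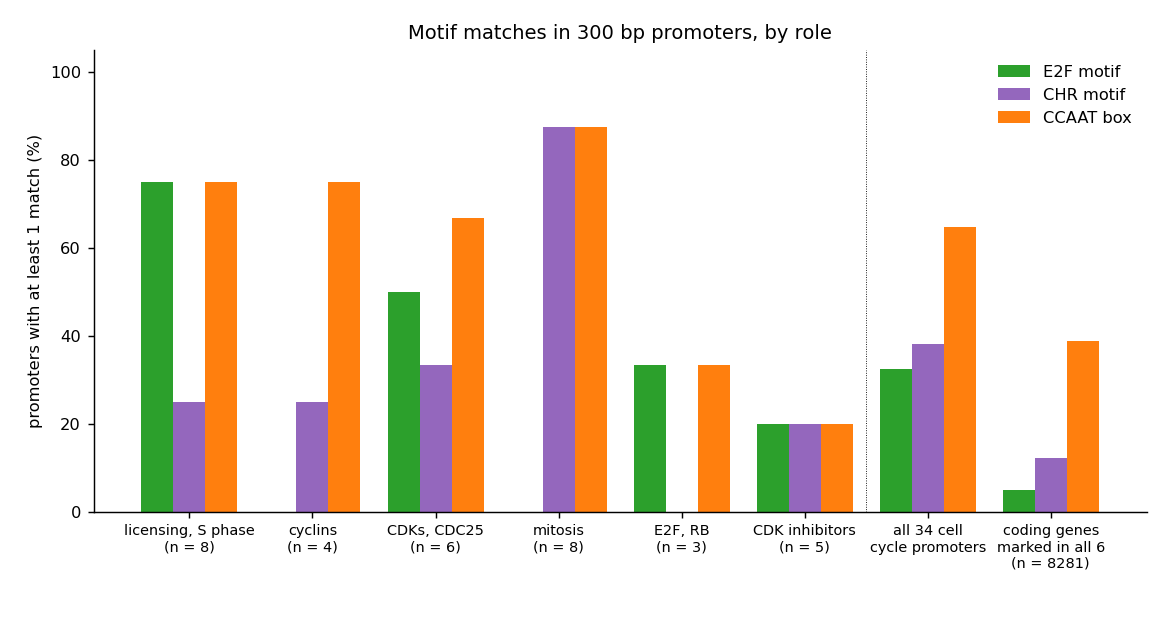
Share of promoters (%, vertical axis) with at least 1 E2F, CHR or CCAAT match, by role of the cell cycle genes and, right of the dotted line, for all 34 promoters and for 8281 coding genes marked in all 6 libraries. E2F matches stood highest in the licensing group and CHR matches in the mitotic group, where no E2F match was found.

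H3K4me3 was present at the start of nearly every cell cycle gene in every library. A peak lay within 1 kb of the start in all 6 libraries at 40 of the 42 genes (95.2%), while 46.1% of all 21887 coding genes met the same rule. The exceptions were Mcm2 and Ccnd2. The libraries each marked 41 of the 42, except THC replicate 1 with 40. Where it could be read on a known strand, the mark lay mostly inside the gene. More of it lay downstream of the start in both Ctrl libraries at 26 of the 34 genes, and more lay upstream at 7, which were Aurka, Birc5, Cdc6, Cdk6, Cdkn2a, E2f1 and E2f3. In Ctrl the median was 895.5 bp downstream and 412.5 bp upstream of the start at 33 cell cycle genes, and 790.5 and 427 bp at the 8281 marked coding genes.

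**Figure D2:**
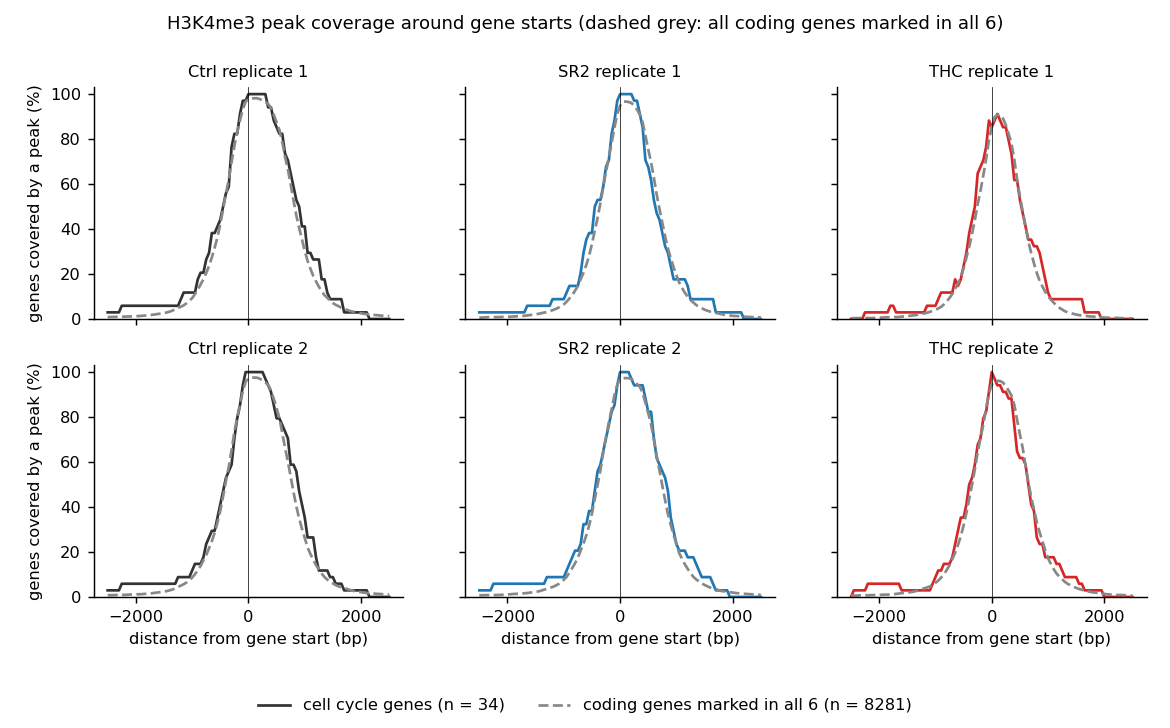
Share of genes (%, vertical axis) with a peak at each distance from the start (bp, horizontal axis), in 1 panel per H3K4me3 library, for 34 cell cycle genes (solid line) and 8281 coding genes marked in all 6 libraries (dashed line). Both curves peak at or just past the start in every library and run close together.

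Ccnd2, which encodes cyclin D2, had 0 covered bp at both of its gene ends in all 6 libraries. A peak was nonetheless called inside the gene in every library, with its nearest edge 1070 to 1391 bp from the higher-coordinate end. That peak was 1960 and 1940 bp long in Ctrl, 1417 and 1843 bp long in SR2, and 407 and 1869 bp long in THC. Only its length in THC replicate 1 stood apart. With no strand known for Ccnd2, its start cannot be placed, and its 0 applies to the 1 kb window.

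Mcm2, a subunit of the MCM helicase, had 378, 445, 419, 541, 0 and 408 covered bp. It carried a narrow mark in 5 libraries, near the 5th percentile of marked genes (2.94 to 8.73), and no peak in THC replicate 1. Its log2 change in THC against Ctrl was −0.49 (SE 0.485), with an adjusted p of 0.585 by limma, and 0.19 without THC replicate 1. Its summit pileup was 91 and 80 in Ctrl, 59 and 73 in SR2 and 59 in THC replicate 2. In Ctrl its authors' −log10 q values of 15.0 and 18.7 were the lowest of the marked cell cycle genes, and its summit fold of 2.80 and 3.51 compares with medians of 9.86 and 9.40 over those genes.

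The licensing and S phase genes covered the whole range of breadths. Mcm7 was among the widest, with 1797, 1724, 1656, 1679, 1563 and 1590 bp, above the 94th percentile in every library (94.8 to 97.9). It shares its window with the start of Ap4m1 on the opposite strand, 138 bp away, so their marks cannot be separated. Mcm4 had 1589, 1552, 1395, 1470, 1083 and 1228 bp, and Mcm5 ranged from 1541 to 818 bp. Pcna, the sliding clamp of DNA polymerase, had 1348, 1315, 1256, 1280, 1124 and 1256 bp, a narrow spread across all 3 treatments. Mcm3, at 837 to 482 bp, and Mcm2 were the 2 MCM genes below the 25th percentile in every library where they were marked.

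Cdt1, the licensing factor that loads MCM with CDC6, had 1728, 1779, 1217, 1379, 750 and 1565 bp. Both SR2 values and both THC values were below both Ctrl values, but THC replicate 2 was above both SR2 libraries and the 2 THC libraries were far apart. Cdc6, its partner, had 941, 948, 840, 824, 473 and 544 bp, and Mcm6 had 1195, 1120, 708, 1060, 443 and 776 bp. At Cdc6 the 3 treatments did not overlap, with Ctrl highest and THC lowest. Over all genes tested, both SR2 libraries were below both Ctrl libraries at 45.9%. Both THC libraries were below both SR2 libraries at 46.7% and below both Ctrl libraries at 80.7%. The share of genes with all 3 treatments in this order was not counted. At Mcm6 SR2 replicate 1 was below THC replicate 2.

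Within the 1 kb window in Ctrl, H3K4me3 at the marked cyclins was widest at the G1 cyclins D1 and E1 and narrowest at cyclin A2. By whole peaks the order differs, with Ccne2 (1757 and 1736 bp) and Ccnd3 (1560 and 1570 bp) longer than Ccne1 (1415 and 1395 bp), and Ccnb2 (880 and 829 bp) shorter than Ccna2. Ccne1 (cyclin E1, the S phase trigger) had 1415, 1395, 1167, 1262, 1024 and 1225 bp. Ccnd3 had 1155, 1165, 1151, 1194, 922 and 1126 bp at the second of its known starts and 0 bp at the first in all 6 libraries. Ccnb1, the main mitotic cyclin, had 1291, 1325, 1105, 1207, 978 and 990 bp. Ccnb2, its close relative, had 880, 829, 626, 620, 319 and 459 bp, below the 25th percentile in every library. The pair of B cyclins thus differed in breadth in every library. In both genes the treatments did not overlap and stood in the order Ctrl, SR2, THC. The shares of all genes in the same pairwise order are given with Cdc6 above. Relative to the typical marked gene, the log2 change of Ccnb1 against Ctrl was −0.05 in SR2 and −0.03 in THC. That of Ccnb2 was −0.25 and −0.53.

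Ccna2 (cyclin A2, of S phase and G2) had 360, 324, 452, 319, 321 and 357 bp in its window, at percentiles of 2.07 to 6.31 among the marked genes of each library. The whole peak that touches that window was 1196, 1095, 1155, 1193, 944 and 1060 bp long, so most of the peak lies beyond the window. Ccne2 (cyclin E2) was similar, with 936 to 414 bp in the window and whole peaks of 1757 to 1131 bp. Neither gene has a known strand in the table, and at both the breadth in the window depends on the gene end used.

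Ccnd1 showed the largest difference in covered bp between treatments. It had 1415, 1415, 1307, 1133, 367 and 646 bp, with both THC libraries below all others and SR2 below Ctrl. The whole peak at that end was 2827 and 2557 bp long in Ctrl, 1686 and 2107 bp long in SR2, and 367 and 646 bp long in THC. The rank of Ccnd1 within its library was at the 76.4th and 80.4th percentile in Ctrl, the 78.6th and 55.7th in SR2, and the 7.37th and 16.9th in THC. In covered bp, whole peak and rank, both THC libraries were below both Ctrl libraries. The same order within each batch follows from this and is no further evidence. For covered bp this order held at 80.7% of all genes tested. The summit pileups of Ccnd1 were 116, 88, 35, 87, 15 and 46. The medians at the cell cycle genes were 150, 112, 51.5, 84, 24 and 60. Its summit folds were low, at 4.06, 4.50, 3.26, 5.07, 3.25 and 3.79, against library medians of 6.47 to 9.86 over the marked cell cycle genes. Its −log10 q of 2.76 in THC replicate 1 was the lowest of these genes there. What this low enrichment contributes to the narrower peaks called after THC was not tested. The end used was the higher-coordinate one, at position 144939831 on chromosome 7 (mm10), and the other end had 0 bp in all 6 libraries.

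The CDK and CDC25 genes were marked in every library and none was among the narrow ones. Cdk6, which pairs with the D cyclins, had 1902, 1902, 1871, 1876, 1584 and 1902 bp, at the 97.9th percentile or above in all 6 libraries. Its start lies 334 bp from that of the non-coding Gm36470 on the other strand. Cdk4, the other partner of the D cyclins, had 1261, 1237, 1101, 1070, 678 and 823 bp. Here the treatments did not overlap, with Ctrl highest and THC lowest, and the shares of all genes in the same pairwise order are given with Cdc6. Cdc25a, a phosphatase of the G1 to S step, had 1338, 1357, 1338, 1343, 1299 and 1290 bp, the smallest spread among the genes of this group. Cdk1, the kinase of mitosis, had 1347, 1240, 1083, 1358, 942 and 877 bp, and Cdk2 had 1192, 1129, 895, 1150, 963 and 953 bp. Cdc25b and Cdc25c ranged from 1211 to 775 bp and from 1371 to 1016 bp.

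**Figure D3:**
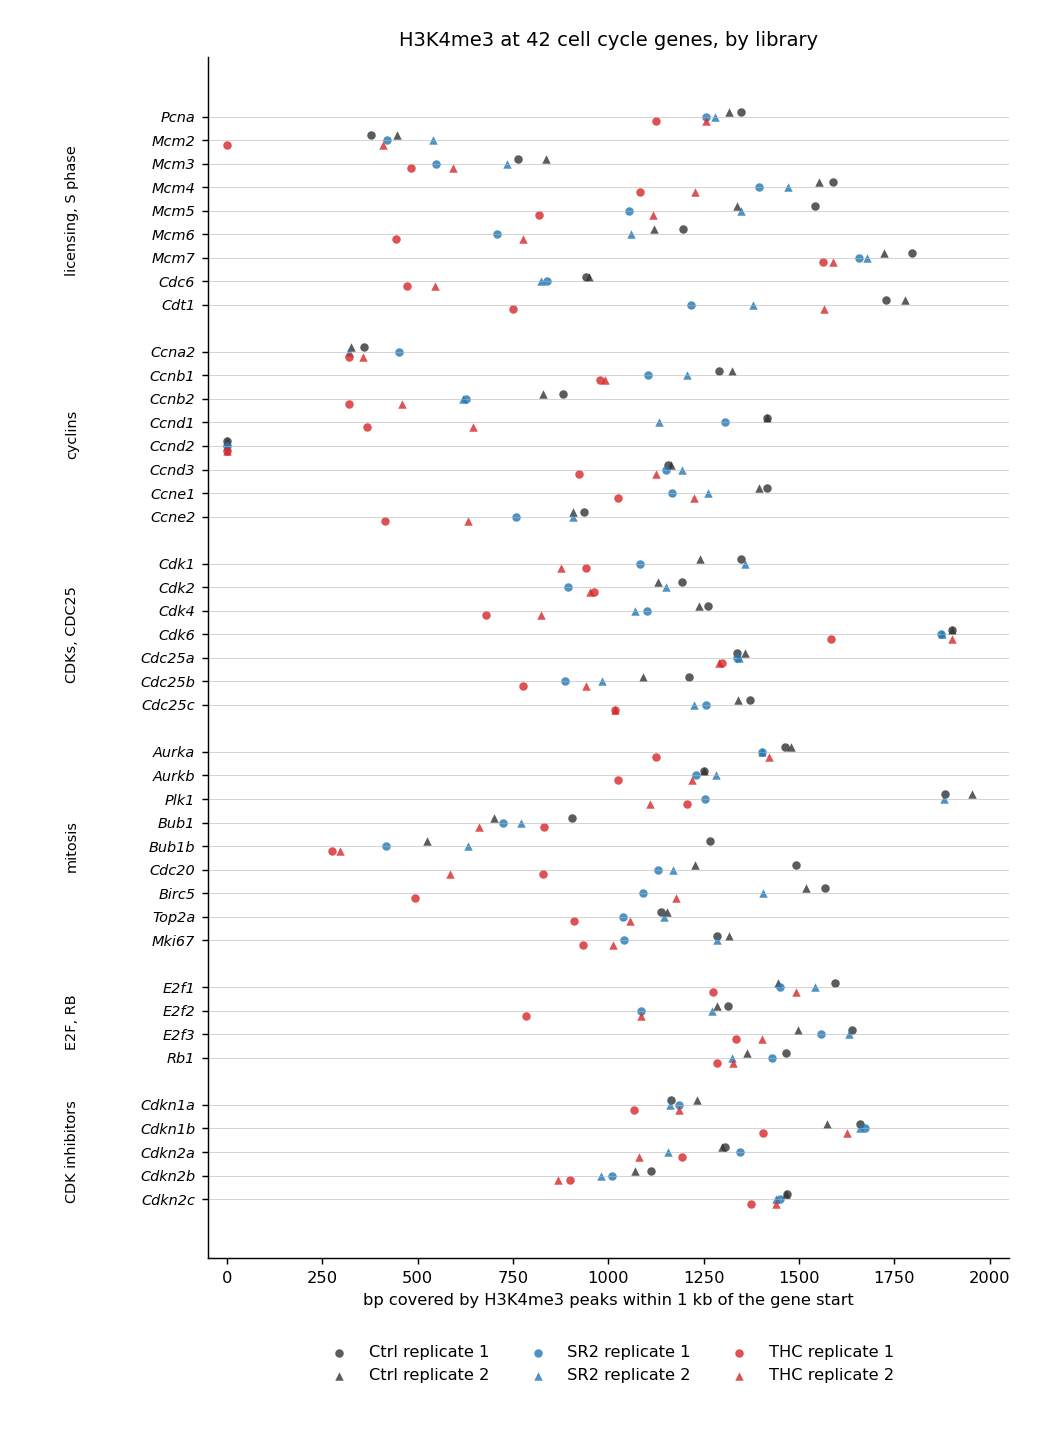
Covered bp within 1 kb of the start (horizontal axis) at each of the 42 genes, grouped by role, with 1 point per H3K4me3 library (circles replicate 1, triangles replicate 2). THC replicate 1 is the lowest library at 31 of the 40 genes marked throughout (77.5%), as it is at 82.0% of the 10098 coding genes marked throughout, and Ccnd2 lies at 0 in all 6.

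The mitotic genes held both wide and narrow marks. Plk1, a kinase of mitotic entry and spindle assembly, had 1884, 1953, 1253, 1879, 1206 and 1108 bp, and in Ctrl it was one of the 3 widest of the 42, with Cdk6 and Mcm7. Aurka, a spindle pole kinase, ranged from 1479 to 1125 bp, and its start lies 433 bp from that of Cstf1 on the other strand. Aurkb, the kinase of the chromosomal passenger complex, had 1252, 1252, 1230, 1281, 1024 and 1220 bp. Mki67, which encodes the proliferation marker Ki-67, had 1285, 1316, 1042, 1286, 933 and 1011 bp, and Top2a had 1137, 1154, 1038, 1147, 911 and 1057 bp. The proliferation markers Mki67 and Top2a therefore kept a mark of more than 900 bp in every library.

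Bub1b, which encodes the spindle checkpoint kinase BUBR1, had 1266, 524, 416, 633, 275 and 296 bp. The Ctrl libraries differed more from each other than Ctrl replicate 2 did from any SR2 or THC library, so its Ctrl mean of 895 ± 525 bp (SD, n = 2) rests on Ctrl replicate 1. Bub1, of the same checkpoint, had 904 to 661 bp with overlapping treatments. Birc5 had 1567, 1518, 1091, 1406, 493 and 1176 bp, and Cdc20, an activator of the anaphase promoting complex, had 1493, 1227, 1131, 1170, 829 and 584 bp. In both, the Ctrl libraries were above all others. The THC libraries were far apart at Birc5, and at Cdc20 the libraries were about as far apart within Ctrl as within THC.

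Of the E2F and RB genes, E2f1, E2f3 and Rb1 ranked high. E2f1 had 1594, 1445, 1451, 1541, 1275 and 1492 bp, E2f3 had 1638, 1498, 1557, 1632, 1334 and 1402 bp, and Rb1 had 1465, 1364, 1428, 1325, 1285 and 1328 bp. These 3 genes were above the 75th percentile in every library. E2f2 had 1313 to 785 bp at the start used, at percentiles of 46.3 to 70.2, and 1267, 1092, 846, 1064, 0 and 821 bp at its other start. At E2f3 the whole peak was 2925, 2763, 2761, 2889, 1334 and 1442 bp long. At the start used, the THC libraries thus had whole peaks far below the length in Ctrl and SR2, with a smaller gap inside the 1 kb window. Only peaks that touch that window count in this length. At its other known start E2f3 had 1616, 1594, 1533, 1586, 879 and 985 bp, so the mark was present there in THC too. In THC the peak at the start used lay wholly or almost wholly inside its own 1 kb window. It could not supply all of the 879 and 985 bp, so a separate peak was also called at the other start. Whether these peaks are parts of the wide peak seen in Ctrl and SR2 was not tested.

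The CDK inhibitor genes were marked in all 6 libraries. Cdkn1b (p27) had 1660, 1572, 1674, 1660, 1405 and 1626 bp, above the 90th percentile in every library. Cdkn2c (p18) had 1468, 1466, 1451, 1440, 1374 and 1440 bp. Cdkn1a (p21), a target of p53, had 1163, 1233, 1185, 1161, 1067 and 1186 bp at its downstream start and 0 bp at its upstream start. At Cdkn1b and Cdkn1a the THC values overlapped those of Ctrl. Cdkn2b (p15) had 1112, 1071, 1010, 980, 900 and 868 bp.

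The upstream, ARF, start of Cdkn2a had 1307, 1298, 1345, 1156, 1193 and 1079 bp, and its downstream, INK4A, start had 346, 328, 262, 0, 0 and 0 bp. The upstream start was thus marked in every library, and the downstream one only in both Ctrl libraries and SR2 replicate 1. The printed sequence of the upstream start carries 1 E2F motif and that of the downstream start carries none. The non-coding Gm12610 starts 561 bp from the upstream start, on the other strand.

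Relative to the coding genes marked in the same library, 17 of the 42 genes were above the 50th percentile in all 6 libraries and 6 were below it in every library where they had a peak. The 6 were Ccna2, Ccnb2, Ccne2, Cdc6, Mcm2 and Mcm3. Cdk6, Cdkn1b and Mcm7 were above the 90th percentile throughout. The median percentile of the 7 marked cyclins was 48.5 and 55.5 in the Ctrl libraries, 59.3 and 55.7 after SR2, and 10.5 and 16.9 after THC. That of the CDK inhibitors was 66.4 and 70.0, 81.4 and 58.9, and 85.0 and 70.1. Percentiles from lists of different lengths describe each library and are no measure of change.

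**Figure D4:**
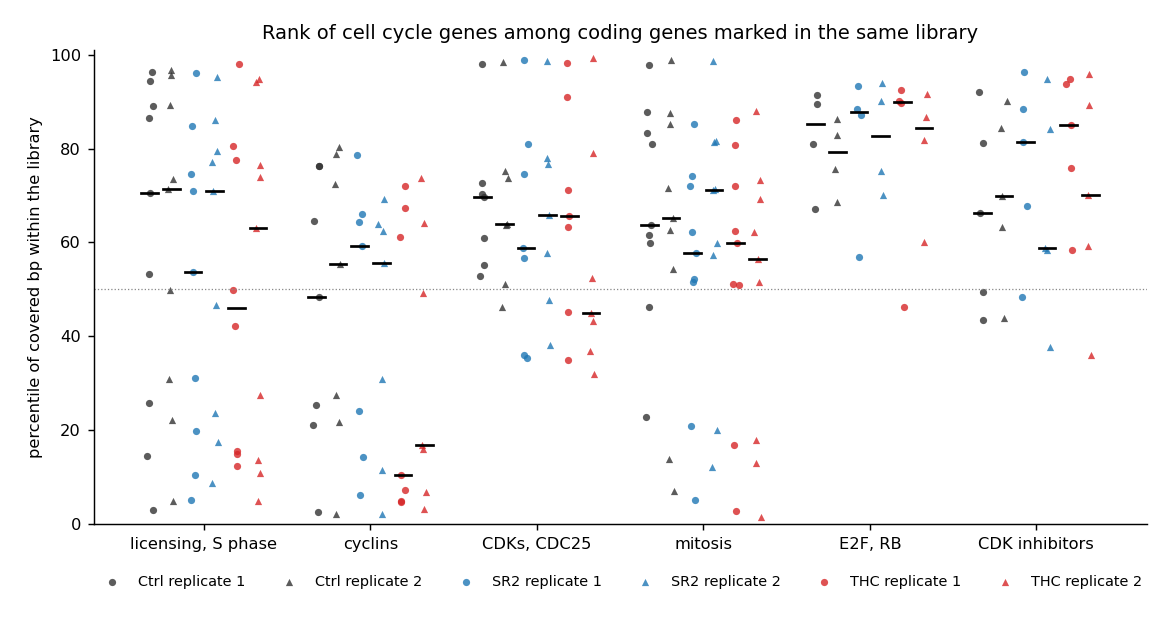
Percentile of covered bp among the coding genes marked in the same library (vertical axis) for each marked cell cycle gene, by role and library, with black bars at the medians. E2f1, E2f3 and Rb1 lie high in every library, while E2f2 falls to the 46.3rd percentile in THC replicate 1. The median of the 7 marked cyclins is 10.5 and 16.9 in the THC libraries. Their median centred log2 change in THC against Ctrl was −0.03, the same as over all genes tested.

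H3K27me3 was called at the cell cycle genes in a single library, at a share above that of all coding genes there, a difference that was not tested. In Ctrl replicate 1, 7 of the 42 genes (16.7%) had an H3K27me3 peak over the gene or 5 kb of flank, and in the other 5 libraries 0 had one. Over all coding genes 11.7% had such a peak in at least 1 library. The H3K27me3 list of Ctrl replicate 1 was the longest, with 2712 peaks, against 387 in Ctrl replicate 2, 840 and 157 in SR2, and 984 and 70 in THC. The share of coding genes with a peak was 7.92% in Ctrl replicate 1 and 0.137% to 3.07% elsewhere. Treatments were not compared on lists this unequal, and the depth of these libraries is unknown.

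The 7 genes were Mcm4, Ccnd2, Cdk1, Aurkb, Mki67, E2f3 (with 2 peaks) and Cdkn2a. The peaks were short, 272 bp at Mcm4, 310 at Ccnd2, 273 at Cdk1, 367 at Aurkb, 597 at Mki67, 313 and 549 at E2f3 and 493 at Cdkn2a. All 8 were weak, with authors' −log10 q values of 1.02 to 1.75. At Mcm4, Cdk1, Aurkb, Mki67 and the 549 bp peak of E2f3, the H3K27me3 peak lay wholly inside an H3K4me3 peak of the same treatment and replicate, within 371 bp of the start used. The other 3 lay 8497 bp (Ccnd2), 26120 bp (E2f3) and 17779 bp (Cdkn2a) from the start used and overlapped no H3K4me3 peak in any library. So 5 of the 8 calls sat on the H3K4me3 peak near the start used, and whether they reflect H3K27me3 itself was not tested.

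Changes of breadth were tested with limma on log2(covered bp + 200), fitted over 12028 coding genes marked in at least 2 libraries, 41 of them cell cycle genes (all but Ccnd2). The libraries were centred on their median over 10098 genes marked in all 6, so each log2 change is relative to the typical marked gene. Without centring, the median change of those genes against Ctrl was −0.11 after SR2 and −0.32 after THC, and it was −0.21 between THC and SR2. The pseudocount of 200 bp understates the change at narrow peaks.

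SR2 was compared with Ctrl to ask whether the mark at these genes differs after this treatment. No cell cycle gene passed the test in either direction. Covered bp were lower in both SR2 libraries than in both Ctrl libraries at 22 of the 41 genes, against 45.9% of all genes tested, and higher in both at 0 of them, against 2.04%. In centred log2 change the 41 genes ran from −0.42 (Bub1b) to 0.26 (Mcm2), with a median of −0.0040, and the median of all genes tested was 1.42e-05. At an adjusted p under 0.05 limma called 0 of the 41 genes and 0% of all genes. At an unadjusted p under 0.05 it called 0 of the 41 narrower and 0 wider, against 3.15% and 0.349% of all genes. Ccnd1 was at −0.08 (SE 0.145, adjusted p 1.00 by limma). Over all genes the unadjusted calls were 379 narrower and 42 wider, and 396 and 178 with quantile normalization.

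The same measures were taken for THC against Ctrl. Covered bp were lower in both THC libraries than in both Ctrl libraries at 34 of the 41 genes, near the 80.7% of all genes tested. They were higher in both at 0 genes, against 0.108% of all. The centred log2 change had a median of −0.03 at the 41 genes and of −0.03 over all genes tested, and it ran from −0.90 at Ccnd1 to 0.31 at Ccna2. By limma no gene of the set and 0% of all genes passed at an adjusted p of 0.05, and the smallest adjusted p over all genes was 0.107. At an unadjusted p under 0.05, 5 of the 41 (12.2%) were narrower, against 11.5% of all genes, and 7 (17.1%) were wider, against 8.03%, a difference that was not tested. Over all genes these calls were 1381 narrower and 966 wider, but 4009 and 1 without centring and 880 and 1023 with quantile normalization. Leaving out THC replicate 2, which leaves THC replicate 1 as the lone library of its group and assumes that it varies like the others, gave 3420 adjusted calls over all genes, 13 of them cell cycle genes. Leaving out THC replicate 1 gave 49 calls, 0 of them cell cycle genes.

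The 5 narrower genes were led by Ccnd1, at −0.90 (SE 0.145, unadjusted p 0.000745, adjusted p 0.122). Its covered bp were 1415 ± 0 in Ctrl and 506.5 ± 197 in THC (mean ± SD, n = 2), lower in both THC libraries, and its adjusted p became 0.0458 when the whole peaks were used and 0.00531 without THC replicate 2. Without THC replicate 1 its adjusted p was 0.0828, and with a window of 2500 bp its change was −1.17 (SE 0.493), with an unadjusted p of 0.0558 and an adjusted p of 0.300. The others were Ccnb2 at −0.53 (unadjusted p 0.0252), Mcm6 at −0.46 (0.0455), Cdc6 at −0.38 (0.0374) and Cdk4 at −0.29 (0.0144), with adjusted p-values of 0.238 to 0.252. The change of Cdk4 had the opposite sign with a window of 500 bp, as given in the section on processing. Cyclin D1 and CDK4 form the kinase that starts the phosphorylation of RB, whereas Mcm6 and Cdc6 belong to origin licensing and Ccnb2 to mitosis. At each of the 5, both THC libraries were below both Ctrl libraries, as they were at 80.7% of all genes tested. The 5 were selected on these same libraries, so this order is no further evidence.

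The 7 wider genes were Cdc25a at 0.27, Cdkn2c at 0.26, Cdkn1a at 0.24, Cdkn1b at 0.23, Cdk6 at 0.20, E2f1 at 0.20 and Aurkb at 0.18, with adjusted p-values of 0.238 to 0.246. All 7 lie below 0 without centring (−0.14 to −0.050), so they are wider only relative to the typical gene. With the batch as a block, the unadjusted p rose to 0.0640 for Cdc6, 0.0666 for Aurkb, 0.0738 for Cdk6 and 0.0533 for Cdkn1a, while Birc5, Cdc20 and Rb1 came under 0.05. The counts were then 6 narrower and 5 wider among the 41 genes, and 1388 and 739 over all genes. In covered bp the 7 wider genes differed little from Ctrl. Cdc25a, for example, had 1347.5 ± 13.4 bp in Ctrl and 1294.5 ± 6.36 bp in THC. Peaks at Cdk6, Cdkn1a, Cdkn1b and Cdkn2c ran past the 1 kb window in every library, which caps their covered bp. At each of these genes both THC whole peaks were shorter than both Ctrl ones. At Cdk6 they were 3564 and 3569 bp long in Ctrl and 2398 and 3352 bp in THC. At Cdkn1a they were 2282 and 2345 bp and 1977 and 2140 bp. What the cap contributes to the centred changes was not tested. Among the CDK inhibitors 3 of the 5 were among the 7 wider genes, against 8.03% of all genes tested. All 5 had positive centred changes, with a median of 0.23, where 55.1% of all genes were negative. But without centring all 5 were negative, with a median of −0.085, as were 98.9% of all genes. With quantile normalization all 5 were positive, with a median of 0.12, where 42.8% of all genes were negative. These differences were not tested. The licensing group had a median of −0.18, or −0.50 without centring, and 7 of its 9 genes were negative, against 55.1% of all genes tested. The sign depends on the scaling, since 9 of the 9 were negative without centring, against 98.9% of all genes, and 5 of the 9 with quantile normalization, against 42.8%. The cyclins had a centred median of −0.03, as did all genes tested, with 3 of the 7 positive.

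**Figure D5:**
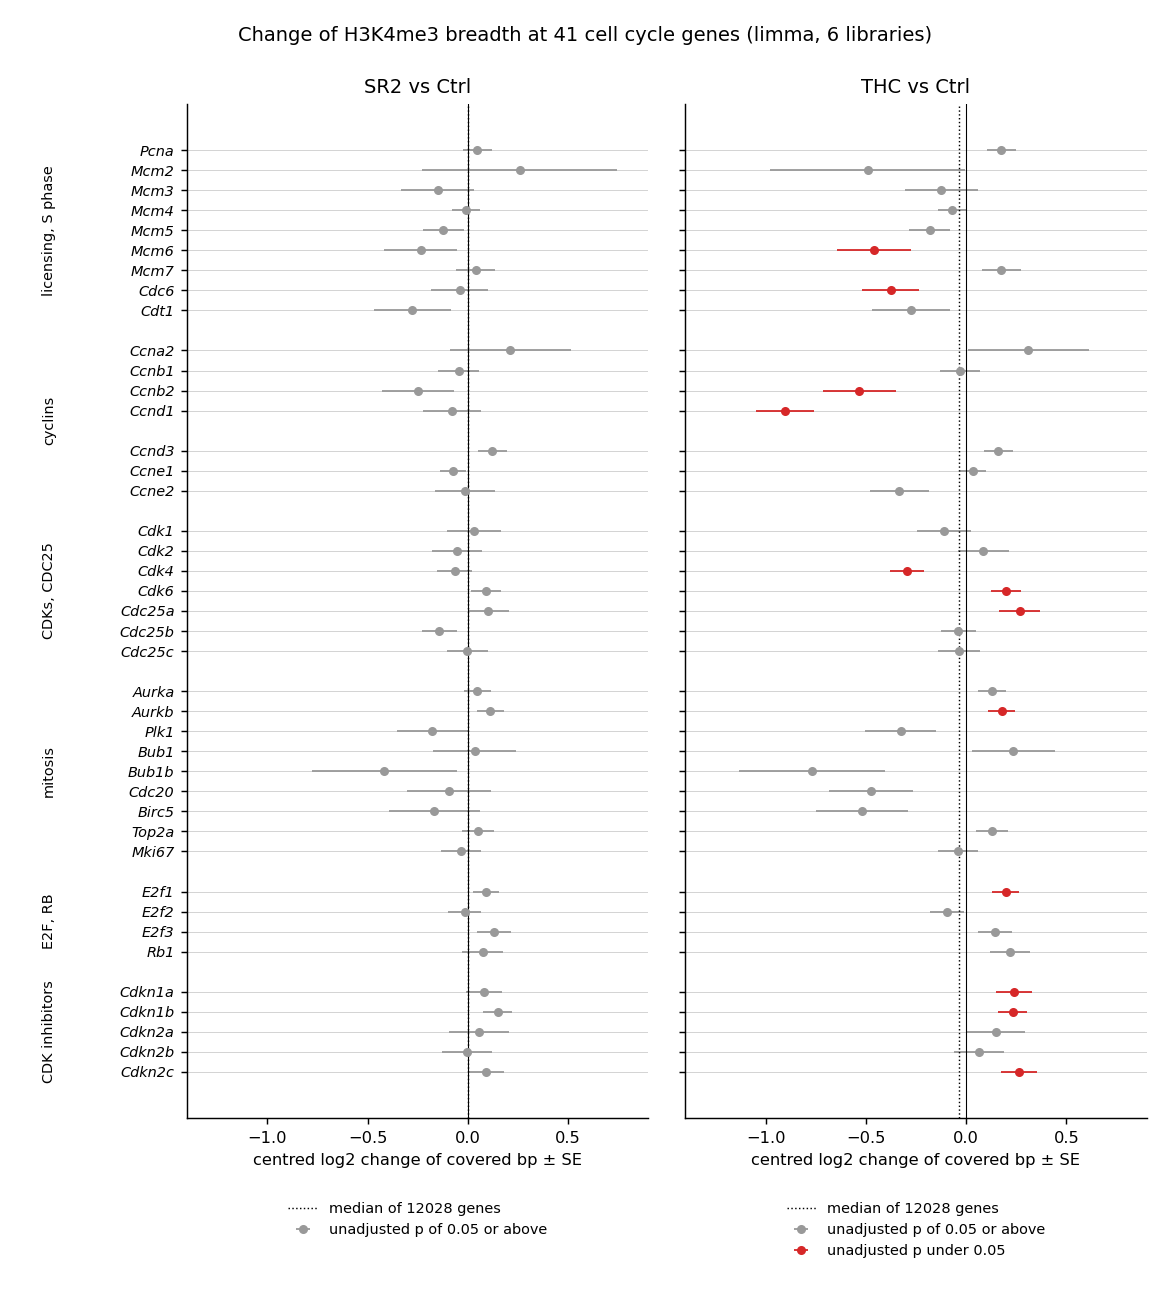
Centred log2 change of covered bp with its SE (horizontal axis) at 41 cell cycle genes, for SR2 against Ctrl (left) and THC against Ctrl (right), from limma on all 6 libraries. Coloured points have an unadjusted p under 0.05 and the dotted line is the median of 12028 genes. Without centring every point on the right lies below 0.

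THC and SR2 share the Ctrl libraries in the comparisons above, so they were also compared directly. Covered bp were lower in both THC libraries than in both SR2 libraries at 21 of the 41 genes, against 46.7% of all genes, and higher at 0, against 0.823%. limma called 0% of all genes at an adjusted p under 0.05. At an unadjusted p under 0.05 it called 2 of the 41 narrower in THC, against 6.29% of all genes, and 0 wider, against 2.71%. The 2 were Ccnd1, at −0.82 (SE 0.145, unadjusted p 0.00122, adjusted p 0.219), and Cdk4, at −0.23 (unadjusted p 0.0380, adjusted p 0.530, and 0.0606 unadjusted with the batch as a block). Both THC libraries were below both SR2 libraries at each, as at 46.7% of all genes. Both genes were selected on these same libraries, so this order is no further evidence. With a window of 500 bp the change of Cdk4 had the opposite sign here too. The median change of the 41 genes was 0.03 and that of all genes −0.0067. Over all genes the unadjusted calls were 756 narrower and 326 wider, and 1599 and 5 without centring. Without THC replicate 2, 7 of the 41 genes and 2530 of all genes passed at an adjusted p of 0.05, and without THC replicate 1 these were 0 and 26.

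A further 126 genes of the same processes, in 5 lists, were treated alike. Of these, 118 (93.7%) were marked in all 6 libraries, against 46.1% of all coding genes, and 25 (19.8%) had an H3K27me3 peak in any library, against 11.7%. No gene of these lists passed at an adjusted p of 0.05 in any comparison. At an unadjusted p under 0.05 in THC against Ctrl, 7 of the 123 tested were narrower and 6 wider, 5.69% and 4.88%, against 11.5% and 8.03% of all genes. Covered bp were lower in both THC libraries than in both Ctrl libraries at 108 of the 123 (87.8%), against 80.7% of all genes. None was marked in both libraries of 1 treatment and in neither of another.

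Like Mcm2, the genes Prim1, Tk1, Nuf2, Pttg1 and Mnat1 lacked a peak only in THC replicate 1. Tk1, the S phase thymidine kinase, had 1520, 1173, 288, 1348, 0 and 668 bp. Kif2c and Tfdp2 had no peak in any library, and Cdkn1c (p57) had one only in SR2 replicate 2, of 438 bp in the window. The strand of Cdkn1c is not in the table, so its start cannot be placed and its values apply to the window at the gene end used. Cdkn2d (p19), a further CDK inhibitor gene of these lists, was marked in all 6 libraries.

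Breadth was also set beside the motifs. In Ctrl the median covered bp was 1299 at the 11 genes with an E2F motif and 1308 at the 23 without one, and 1151 at the 13 with a CHR motif and 1331.5 at the 21 without one. It was 1296 at the 22 with a CCAAT box and 1436 at the 12 without one. The median centred log2 change in THC against Ctrl was −0.11 with and 0.07 without an E2F motif, −0.04 with and 0.09 without a CHR motif, and −0.04 with and 0.11 without a CCAAT box. These medians are descriptions of small groups, and the differences were not tested.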

How the data were processed

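The CUT&Tag libraries came from 500000 cells each, with 60 min of tagmentation and paired-end reads of 150 bp per the labels' protocols. The submitters' processing notes name mm10 and, without roles, MACS3, Bowtie2 2.5.4, SAMtools 1.8, cutadapt 5.2, Picard, bedtools and deepTools. Peak names show that the authors called peaks per library. Each deposited line gives a score, a fold enrichment (a ratio within 1 library), −log10 p and −log10 q by the authors. Summit pileups were solved from the deposited fold and −log10 p, and 100% were whole within 0.005.

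Gene positions, starts and promoters came from RefSeq GRCm38.p6, and starts were known for 17492 of 21887 coding genes. limma 3.58.1 (trend, R 4.3.3) used log2(covered bp + 200) in 1 fit of 6 libraries without a block, with Benjamini-Hochberg adjustment over 12028 genes and a threshold of 0.05. It was tested on simulated data. p-values measure the spread between these libraries, which may be technical. The labels' batch pairs the samples, and the deviations of same-numbered libraries correlated at −0.126 (Ctrl and SR2), 0.00875 (Ctrl and THC) and 0.0956 (SR2 and THC). Chi-square per degree of freedom of summit pileups was 0.778 to 0.898 within groups and 0.728 to 1.10 between them, so no replicate pair stood apart and n stayed at 2.

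Members and lists were chosen with earlier results of these data known. The rule named, with every library's value, genes lacking a peak in a library, with an unadjusted p under 0.05, with an H3K27me3 peak, or among the 3 widest or narrowest in Ctrl. Further genes were chosen after their values were seen, to fill the role groups.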

Additional observations from a re-analysis of the deposited data

How the results depend on the processing

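For SR2 against Ctrl, limma called 0 genes at an adjusted p of 0.05 under every alternative run. For THC against Ctrl and THC against SR2 it called 0 genes except in these cases. With the whole length of the peaks that touch the window it called 7 and 2 genes (Ccnd1 among the 7), and with equal peak numbers 2 and 1. Leaving out 1 library at a time gave 0 to 3420 and 0 to 2530 calls. The cause was not tested. With the replicate number, which is the batch, as a block, the count stayed at 0 in all 3 comparisons, and with the pairing of Ctrl crossed (chosen after seeing the data) it was 0 for SR2 against Ctrl.

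The number of cell cycle genes marked in all 6 libraries was 38 with a window of 500 bp, 37 when only peaks with a −log10 q of 5 or more were kept, 40 with a window of 2500 bp or equal peak numbers, and 40 to 41 with 1 library left out. The number with an H3K27me3 peak was 6 without flank and 7 with 10 kb.

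Of 270 values for 15 named changes under the alternatives, 250 kept their direction without an adjusted call, 9 kept it and gained a call, and 11 changed sign. Without centring, the change in THC against Ctrl was −0.14 for Aurkb, −0.050 for Cdc25a, −0.12 for Cdk6, −0.077 for Cdkn1a, −0.085 for Cdkn1b, −0.053 for Cdkn2c and −0.12 for E2f1, because the centring shift of −0.32 is then kept. With a window of 500 bp Cdk4 was at 0.14 against both Ctrl and SR2. Mcm2 in THC against Ctrl was at 0.71 with quantile normalization and between −1.16 and 0.19 with either THC library left out.

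With 2 libraries per group, 1 library can decide a count, and THC replicate 1 had the lowest summit pileups. Peak breadth saturates at the 2001 bp window and depends on depth, which peak lists hold only through the pileups. The H3K27me3 lists were too unequal to compare treatments.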
